A study of Rattus norvegicus with 24 samples.

Results

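The genes described here are Gfap and Vim, which encode the glial intermediate filament proteins GFAP and vimentin. They were taken by Ensembl identifier, ENSRNOG00000002919 for Gfap and ENSRNOG00000018087 for Vim, and are 2 of the 24613 gene rows of the count matrix. RNA-seq was performed on whole dorsal root ganglia (DRG), which hold the cell bodies of sensory neurons, from 24 female Sprague Dawley rats. DRG of segments T11 to L4 from both sides were pooled within an animal, so each library is 1 rat and mixes neurons, satellite glia, Schwann cells, fibroblasts, vessels and immune cells. All groups, the uninjured one included, lived in small cages that restrict walking, and rats shared a cage with others of their group. The No SCI group (n = 4) had no injury and was collected at 11.5 weeks. The study calls it naive and describes surgery, antibiotics and pain relief for injured rats alone, so these cannot be told apart from injury. The CONT SCI group (n = 6) had a 25 g-cm contusion of the spinal cord at T2 and was collected 11.5 weeks later. The CONT SCI + SWIM group (n = 5) and the CONT SCI + SWW group (n = 5) had the same contusion, then swam or walked in shallow water on 5 days a week for 10 weeks, starting 2.5 weeks after injury, and were collected at 13.5 weeks. The TX SCI group (n = 4) had a complete transection at T2 and was collected at 8.5 weeks. Time of collection differed between these groups and never within one, so for groups collected at different times it cannot be told apart from injury or exercise.

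GFAP and vimentin are type III intermediate filament proteins, which form rope-like polymers that give a cell its shape and resistance to stretch, and the 2 proteins can assemble into a shared filament. In the central nervous system GFAP marks astrocytes and rises in reactive gliosis. In ganglia and nerves it is found in satellite glial cells, which wrap the neuron cell bodies, and in non-myelinating Schwann cells, and satellite glia are known to raise it after damage to a peripheral nerve. Vimentin is broader and is made by satellite glia, Schwann cells, fibroblasts, endothelium and macrophages, so its level in a whole ganglion is not that of glia alone. The injuries here were made in the cord far above the ganglia sampled, and the comparisons address whether the ganglia below the lesion differ in these filament genes with injury severity and with exercise. In bulk tissue, fewer cells of a type and less RNA per cell cannot be told apart. The matrix names no gene by symbol, so markers of the tissue and of other cell types were not looked up.

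Gfap was counted at a modest level in every rat. Levels are given as CPM, the counts of a gene scaled to a common library size, with TMM as the scaling. In No SCI, Gfap stood at 12.4, 7.89, 12.7 and 13.5 CPM in replicates 1 to 4. In CONT SCI it ranged from 8.07 to 15.2 CPM with a median of 9.04. Replicate 2 of No SCI lay below its group, and replicate 6 of CONT SCI lay above all other samples of these 2 groups. In CONT SCI + SWIM, Gfap stood at 7.71, 5.49, 5.39, 17.3 and 6.96 CPM in replicates 1 to 5. In CONT SCI + SWW it stood at 11.2, 21.5, 15.9, 17.7 and 8.16 CPM. Of the swimming rats 4 lay below every shallow water walker, and the remaining one, replicate 4, lay above 3 of the 5 walkers. In TX SCI, Gfap stood at 16.1, 12.8, 12.0 and 8.84 CPM. From the highest to the lowest mean, the groups were CONT SCI + SWW with 14.9 ± 5.29 CPM (SD, n = 5), TX SCI with 12.4 ± 2.99 (SD, n = 4), No SCI with 11.6 ± 2.53 (SD, n = 4), CONT SCI with 9.94 ± 2.68 (SD, n = 6) and CONT SCI + SWIM with 8.58 ± 4.99 (SD, n = 5). Each pair of neighbours in this order overlapped.

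Vim was counted in a narrow band. In No SCI, Vim stood at 815.5, 886.5, 949.0 and 869.2 CPM in replicates 1 to 4. In CONT SCI it ranged from 773.0 to 1003 CPM with a median of 833.1. These ranges overlapped, and the highest CONT SCI value was that of replicate 6, the same rat that was highest for Gfap. In CONT SCI + SWIM, Vim stood at 803.3, 809.1, 803.2, 861.8 and 774.9 CPM in replicates 1 to 5. In CONT SCI + SWW it stood at 775.6, 942.5, 883.3, 980.0 and 782.0 CPM. Of the swimming rats 4 lay between the lowest and the third highest walker, and replicate 5 lay just under the lowest. In TX SCI, Vim stood at 963.4, 945.0, 856.0 and 733.2 CPM. The order of the means was No SCI with 880.1 ± 55.0 CPM (SD, n = 4), TX SCI with 874.4 ± 105.2 (SD, n = 4), CONT SCI + SWW with 872.7 ± 92.4 (SD, n = 5), CONT SCI with 859.5 ± 81.7 (SD, n = 6) and CONT SCI + SWIM with 810.5 ± 31.7 (SD, n = 5). Neighbouring groups overlapped throughout. From the lowest to the highest of the 24 rats, Vim spanned a 1.37-fold range and Gfap a 3.99-fold range. No length per gene was at hand, so the levels of the 2 genes are not compared with each other.

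**Figure D1:**
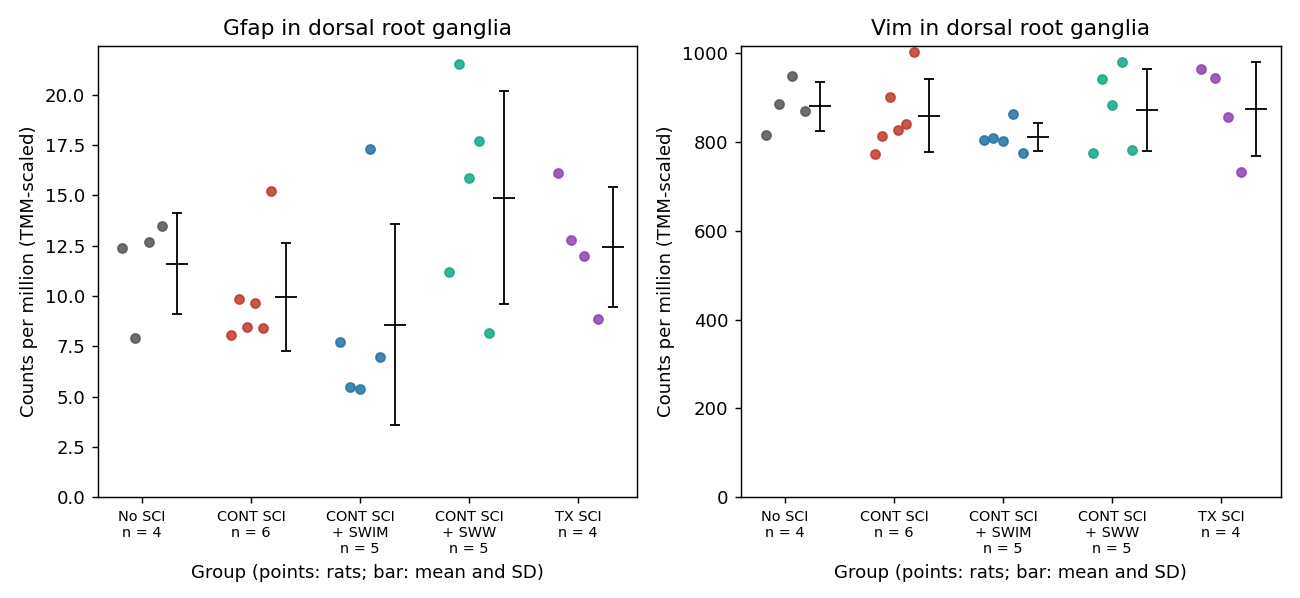
Gfap (left) and Vim (right) in CPM, scaled by TMM, in each of 24 rats by group, with both axes starting at 0. Points are rats and the bar beside them is the mean with the SD; Gfap lies between 5.39 and 21.5 CPM and Vim between 733.2 and 1003 CPM, and all groups overlap.

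Neither gene passed an adjusted p of 0.05 in any of the 10 comparisons between groups (edgeR's quasi-likelihood test, Benjamini-Hochberg adjustment over all genes tested), and in none of them were the groups free of overlap. Both genes passed the filter on low counts in every fit. Gfap had an unadjusted edgeR p under 0.05 in 2 of the 10 comparisons and Vim in 0. These 2 were CONT SCI + SWW against CONT SCI and CONT SCI + SWIM against CONT SCI + SWW. In them 43.0% and 2.99% of all genes passed the adjusted p, and shares at the unadjusted level are not given. DESeq2's Wald test called 0 of 10 for each gene, and from 819 to 6723 genes per comparison. It was fitted to all genes with any count, so the shares from edgeR do not apply to it, and its own are not given. By edgeR's adjusted p, the 10 comparisons called between 2.99% and 43.0% of all genes tested, given with each below. Vim differed by at most 0.12 on the log2 scale in any comparison, with 95% intervals that together reached from -0.28 to 0.28, or from 0.823-fold to 1.21-fold. The Gfap differences ran from -0.76 to 0.58 on that scale, with intervals that reached from -1.37 to 1.14.

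**Figure D2:**
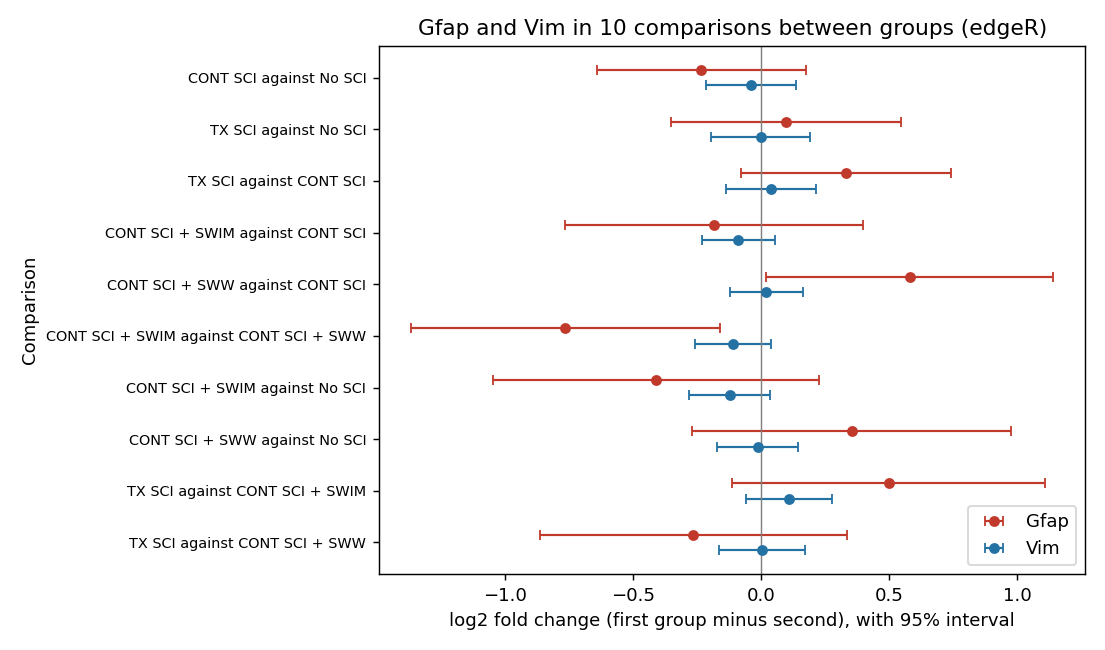
Log2 fold changes of Gfap and Vim in the 10 comparisons, as the first-named group minus the second, on the horizontal axis. Points are edgeR's estimates and bars their 95% intervals; the Vim estimates lie between -0.12 and 0.11, and those of Gfap between -0.76 and 0.58, with wider bars.

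Contusion was compared with no injury at the same time of collection. Gfap averaged 9.94 CPM in CONT SCI and 11.6 CPM in No SCI, a log2 fold change of -0.23 (standard error 0.19, 95% interval -0.64 to 0.18, edgeR adjusted p = 0.579). It was -0.39 without CONT SCI replicate 6 and -0.16 without No SCI replicate 4, and passed in neither case. Vim averaged 859.5 and 880.1 CPM, a log2 fold change of -0.041 (standard error 0.083, interval -0.22 to 0.13, edgeR adjusted p = 0.857). Of all 15126 genes tested here, 10.4% passed the adjusted p and 10.6% did not overlap between the groups. The genes that passed had a median absolute log2 fold change of 0.41. The interval of Vim excludes a difference of that size in either direction, and that of Gfap includes it as a fall.

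Complete transection was compared with the other 2 unexercised groups. Against No SCI, Gfap averaged 12.4 against 11.6 CPM, a log2 difference of 0.098 (standard error 0.21, interval -0.35 to 0.55, edgeR adjusted p = 0.750), whose sign turned when TX SCI replicate 1 (-0.049) or No SCI replicate 2 (-0.048) was left out. Vim averaged 874.4 against 880.1 CPM, and its log2 difference of -0.0021 (standard error 0.091, interval -0.19 to 0.19, edgeR adjusted p = 0.989) had no stable sign under other scalings. In that comparison 34.8% of 15126 genes passed and 33.1% did not overlap, and a mere 0.562% of the genes tested had a smaller absolute log2 fold change than Vim. Against CONT SCI, Gfap was 1.26 times as high, a log2 difference of 0.33 (standard error 0.19, interval -0.078 to 0.74, edgeR adjusted p = 0.181). Without CONT SCI replicate 6, the rat with the highest Gfap of its group, this difference was 0.48 and passed (edgeR adjusted p = 0.0281), and without TX SCI replicate 1, the highest of its own, it was 0.18 (edgeR adjusted p = 0.515). Vim differed from CONT SCI by 0.039 (standard error 0.083, interval -0.14 to 0.21, edgeR adjusted p = 0.731), a sign that turned without TX SCI replicate 1. Here 40.4% of the genes passed, with a median absolute log2 fold change of 0.39, and 25.4% did not overlap. Time of collection, 8.5 against 11.5 weeks, changes together with the injury in both comparisons.

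The 2 forms of exercise were each compared with contusion alone. In CONT SCI + SWW, Gfap averaged 14.9 CPM against 9.94 CPM in CONT SCI, a log2 difference of 0.58 (standard error 0.27, interval 0.019 to 1.14, unadjusted p = 0.0432, edgeR adjusted p = 0.0881), and 3 of the 5 walkers lay above all 6 CONT SCI rats. This difference passed when CONT SCI replicate 6 (0.74, edgeR adjusted p = 0.0337) or CONT SCI + SWW replicate 5 (0.75, edgeR adjusted p = 0.0288) was left out, and also when only these 2 groups entered the fit (0.59, edgeR adjusted p = 0.0429). With any of the other 9 rats of these groups left out it did not pass, down to 0.40 without CONT SCI + SWW replicate 2 (edgeR adjusted p = 0.270), and neither did it with DESeq2 (0.59, adjusted p = 0.118). Vim differed by 0.020 (standard error 0.069, interval -0.12 to 0.16, edgeR adjusted p = 0.843), with a sign that turned when any of 3 rats was left out. In this comparison 43.0% of 15179 genes passed, with a median absolute log2 fold change of 0.35, and 24.5% did not overlap.

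After swimming, Gfap averaged 8.58 CPM against 9.94 CPM in CONT SCI, a log2 difference of -0.18 (standard error 0.28, interval -0.77 to 0.40, edgeR adjusted p = 0.659). Of the 5 swimming rats 4 lay below all CONT SCI rats and replicate 4 lay above all of them. The difference was -0.63 without replicate 4 (edgeR adjusted p = 0.0544) and -0.022 without CONT SCI replicate 6 (edgeR adjusted p = 0.964), and it did not pass whichever rat was left out. Vim differed by -0.089 (standard error 0.069, interval -0.23 to 0.054, edgeR adjusted p = 0.348). Its size depended on the scaling, with -0.033 under upper quartile scaling and -0.039 on total counts, and it passed under neither. In this comparison 32.1% of the genes passed and 15.8% did not overlap. Exercised rats were collected 2 weeks later than CONT SCI, and exercise and time cannot be told apart here.

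Swimming and shallow water walking were collected at the same time and form the comparison in which Gfap differed most. Gfap averaged 8.58 CPM after swimming and 14.9 CPM after walking, a log2 difference of -0.76 (standard error 0.29, interval -1.37 to -0.16, unadjusted p = 0.0154), and 98.7% of the genes tested had a smaller absolute difference. It did not pass after adjustment (edgeR adjusted p = 0.158), in a comparison in which 2.99% of 15179 genes passed and 6.86% did not overlap. Without CONT SCI + SWIM replicate 4 the difference was -1.21 and passed (edgeR adjusted p = 0.0112), and without CONT SCI + SWW replicate 2 it was -0.59 (edgeR adjusted p = 0.356). Vim differed by -0.11 (standard error 0.072, interval -0.26 to 0.040, edgeR adjusted p = 0.430), close to the median absolute difference of all genes, which was 0.11. By edgeR's estimate Gfap was 1.70-fold and Vim 1.08-fold lower in swimmers, and neither was called.

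Relative to No SCI, CONT SCI + SWIM had a Gfap log2 difference of -0.41 (standard error 0.31, interval -1.05 to 0.23, edgeR adjusted p = 0.343) and a Vim difference of -0.12 (standard error 0.076, interval -0.28 to 0.035, edgeR adjusted p = 0.244). Of the swimming rats 4 of 5 lay below every No SCI rat for Gfap and 4 of 5 did so for Vim, with replicate 4 the exception in both. Without that rat the Gfap difference was -0.85 and passed (edgeR adjusted p = 0.0175), and without CONT SCI + SWIM replicate 3 it was -0.28 (edgeR adjusted p = 0.567). In this comparison 28.1% of the genes passed and 24% did not overlap. CONT SCI + SWW relative to No SCI gave 0.35 for Gfap (standard error 0.30, interval -0.27 to 0.98, edgeR adjusted p = 0.436) and -0.014 for Vim (standard error 0.076, interval -0.17 to 0.14, edgeR adjusted p = 0.919), the latter with no stable sign. The Gfap difference was 0.17 without CONT SCI + SWW replicate 2 and 0.52 without CONT SCI + SWW replicate 5, and passed in neither case. There 22.9% of the genes passed and 21.4% did not overlap. Injury, exercise and time of collection (13.5 against 11.5 weeks) change together in these comparisons with No SCI and cannot be told apart. No SCI served as reference in several of these comparisons, as did CONT SCI, so they share control samples and are not independent of each other.

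Transected rats were also set against the exercised rats. Relative to CONT SCI + SWIM, TX SCI had a Gfap log2 difference of 0.50 (standard error 0.30, interval -0.11 to 1.11, edgeR adjusted p = 0.276) and a Vim difference of 0.11 (standard error 0.082, interval -0.060 to 0.28, edgeR adjusted p = 0.399). Without CONT SCI + SWIM replicate 4 the Gfap difference was 0.93 and passed (edgeR adjusted p = 0.0195), and without TX SCI replicate 1 it was 0.35 (edgeR adjusted p = 0.503). Of 15247 genes, 14.4% passed and 16.1% did not overlap. Relative to CONT SCI + SWW, the Gfap difference was -0.26 (standard error 0.29, interval -0.86 to 0.33, edgeR adjusted p = 0.547). Its size rests on single rats, with -0.087 without CONT SCI + SWW replicate 2, -0.14 without TX SCI replicate 4 and -0.42 without CONT SCI + SWW replicate 5, and it passed in none of these. Vim differed by 0.0028 (standard error 0.082, interval -0.17 to 0.17, edgeR adjusted p = 0.986), with no stable sign, and 0.990% of the genes had a smaller absolute difference. In this last comparison 22.0% of the genes passed and 18.6% did not overlap. The 2 sides of these comparisons were collected 5 weeks apart.

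The spread between rats and the error from counting are given here as a description. What limited the calls was not tested. The libraries held between 16086670 and 38730307 counts, of which 89 to 649 were Gfap and 13121 to 33531 were Vim. Counting alone then gives a relative error (1 divided by the square root of the count) of 3.93% to 10.6% for Gfap and of 0.546% to 0.873% for Vim. The biological coefficient of variation, edgeR's estimate of the spread between rats of a group beyond counting, was 30.0% for Gfap and 8.77% for Vim over all 24 samples, against a median of 9.31% over all genes tested. For 96.6% of the genes this coefficient was lower than for Gfap, and for 44.8% it was lower than for Vim. In the unexercised groups with and without injury (14 samples) it was 20.6% for Gfap, and in the set with exercise (20 samples) it was 31.1%. Within groups, the SD of Gfap was 58.2% of the mean after swimming and 35.5% after walking, against 21.7% in No SCI, 27.0% in CONT SCI and 24.03% in TX SCI. For Vim it was 3.91% of the mean after swimming and 6.25% to 12.0% in the other 4 groups. Single rats carry much of this in some groups. Without CONT SCI + SWIM replicate 4 the SD of Gfap was 17.8% of the mean after swimming, without CONT SCI replicate 6 it was 9.0% in CONT SCI, without No SCI replicate 2 it was 4.39% in No SCI, and without TX SCI replicate 4 it was 16.02% in TX SCI. For Vim it was 1.93% after swimming, 5.63% in CONT SCI and 6.24% in TX SCI without CONT SCI + SWIM replicate 4, CONT SCI replicate 6 and TX SCI replicate 4. In CONT SCI + SWW it moved less, whichever rat was left out, from 25.9% to 41.5% for Gfap and from 9.6% to 12.2% for Vim. For Vim in No SCI it ranged from 4.32% to 7.65%. The biological coefficient of variation of Gfap over all samples was 23.5% without CONT SCI + SWIM replicate 4, still higher than that of 93.4% of genes. Differences in spread between groups were not tested.

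Rats with more Gfap than their group also tended to have more Vim. After removing each group's mean from log2 CPM, Pearson's r between Gfap and Vim was 0.66 over the 24 rats and Spearman's rho was 0.64 (two-sided, 100000 permutations within groups, p = 0.00039 and p = 0.00251), and this was the sole relation between measures that was tested. The 2 rats whose Gfap deviation lay farthest from the median deviation were CONT SCI + SWIM replicate 4 and CONT SCI + SWW replicate 5. Without them r was 0.67 (permutation p = 0.00485) and rho fell to 0.55 (permutation p = 0.0176). Both genes lay on the same side of their group mean in 19 rats, above it in 8 and below it in 11. In TX SCI the order of the 4 rats was the same for both genes, with replicate 1 highest and replicate 4 lowest. Replicate 6 was highest for both genes in CONT SCI, and so was replicate 4 in CONT SCI + SWIM. In CONT SCI + SWW, replicates 2, 3 and 4 were the higher rats for both genes. Of the 5 rats with the genes on opposite sides, 3 were No SCI rats, so this held for 1 of the 4 rats of that group: replicates 1 and 4 lay above its mean for Gfap and below it for Vim, and replicate 2 the reverse. The 2 values of a rat share a library and its scaling. Over the 12519 genes whose mean log2 CPM reached 1, the median r with Gfap was -0.0054, and Vim ranked 173rd, with 1.37% of the genes higher. Seen from Vim, 1.62% of the genes had a higher r than Gfap.

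**Figure D3:**
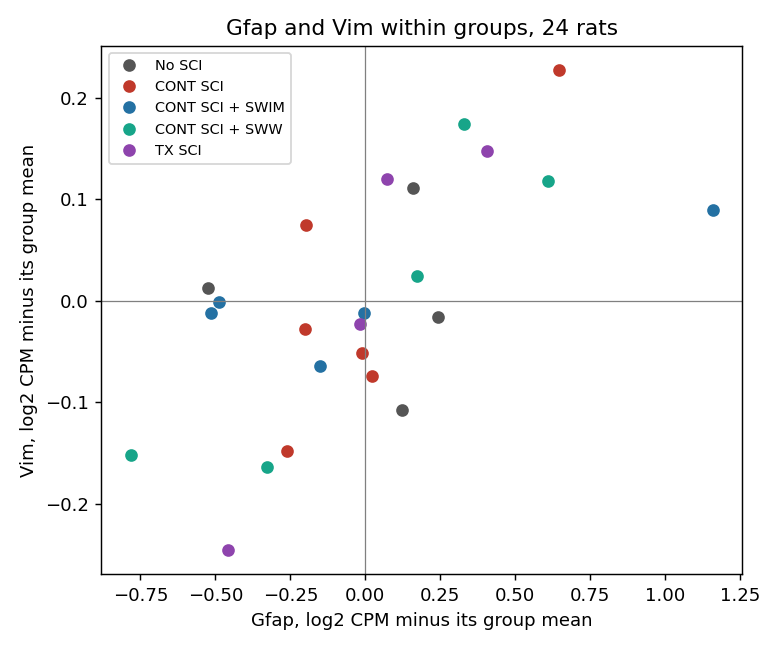
Each of 24 rats by its Gfap (horizontal) and Vim (vertical) log2 CPM after subtraction of its group mean, coloured by group. Pearson's r is 0.66; 19 rats lie at the lower left or upper right of the group means, and the Gfap axis covers a wider range than the Vim axis.

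The ratio of the 2 counts in a rat does not depend on how its library is scaled. Per 1000 Vim counts there were 15.2, 8.90, 13.4 and 15.5 Gfap counts in No SCI replicates 1 to 4, and from 9.37 to 15.2 in CONT SCI with a median of 11.1. Swimming rats had 9.60, 6.78, 6.71, 20.1 and 8.98, and shallow water walkers had 14.5, 22.8, 18.0, 18.1 and 10.4. Here too 4 swimming rats lay below all walkers while replicate 4 lay among the upper walkers. TX SCI rats had 16.7, 13.5, 14.02 and 12.1. Group means ran from 10.4 ± 5.56 (SD, n = 5) after swimming to 16.8 ± 4.63 (SD, n = 5) after walking, and neighbouring groups overlapped. Differences in this ratio between groups were not tested.

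Likeness to other genes was measured by Pearson's r of log2 CPM over the 24 samples, among 12518 genes that reached the same mean, as a description. ENSRNOG00000059116 was most like Gfap, with r = 0.79, and ENSRNOG00000019555 came second with r = 0.79. ENSRNOG00000020673 was most like Vim, with r = 0.79, followed by ENSRNOG00000050547 with r = 0.79. Within groups, after subtraction of group means, the r of these 4 genes with their member was 0.81, 0.78, 0.84 and 0.79, values that are high in part by selection, since the genes were picked by r over the same samples. The matrix does not pair these identifiers with names, and none is given.

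The sequences just before the annotated starts of both genes are shown because the deviations of the 2 genes from their group means were correlated over the 24 rats. They were read from RefSeq (build GRCr8) and matched by symbol, 2 of 2, and cover the 250 bases before each start, Gfap at chr10:88361662-88361911 on the minus strand and Vim at chr17:81577011-81577260 on the plus strand. In this annotation no other gene overlaps either of them. Capitals mark matches to any of the motifs searched on both strands, namely the TATA box letters TATAAA, the CCAAT box letters CCAAT, the GC box letters GGGCGG, the AP-1 letters TGANTCA, the STAT-type letters TTCNNNGAA, the STAT-type motif with 4 free bases between TTC and GAA, and the SOX letters ACAAAG, and no matches overlap one another.
Gfap: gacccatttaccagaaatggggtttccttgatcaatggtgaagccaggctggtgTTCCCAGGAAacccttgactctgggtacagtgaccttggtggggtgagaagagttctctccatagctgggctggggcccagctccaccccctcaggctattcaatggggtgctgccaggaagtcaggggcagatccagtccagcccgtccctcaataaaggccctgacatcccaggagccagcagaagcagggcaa
Vim: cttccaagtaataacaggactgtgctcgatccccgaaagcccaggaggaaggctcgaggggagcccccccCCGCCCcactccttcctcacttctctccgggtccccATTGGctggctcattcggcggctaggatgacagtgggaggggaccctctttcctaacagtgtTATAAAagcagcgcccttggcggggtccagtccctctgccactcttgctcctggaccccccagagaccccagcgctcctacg
The Gfap window held 1 match, to the STAT-type motif with 4 free bases, which begins 196 bases before the start, and 6.25% of 33469 windows of this length held such a match. The Vim window held TATAAA beginning 82 bases before the start (12.9% of windows), the reverse complement of CCAAT beginning at 144 (34.0%) and the reverse complement of GGGCGG beginning at 180 (30.5%). Neither window held TGANTCA (6.34% of windows), TTCNNNGAA (7.67%) or ACAAAG (16.3%), and no letters searched were shared by both windows. The share of G and C was 57.6% in the Gfap window and 62.4% in the Vim window, against a median of 51.2%. These matches describe letters only, and the motifs were picked with the sequences in view.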

How the data were processed

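RNA of whole DRG from 24 rats was sequenced as stranded poly-A libraries with single-end reads. The authors aligned the reads to rn6 with STAR, counted reads per Ensembl gene with HTSeq 0.10.0 (version per the submitters' processing notes) using strand, without mitochondrial genes, and deposited whole-number counts without normalization. Reads that fit several places or genes can be lost from such counts. Column names carry the group and replicate, from which all 24 columns were assigned, with 0 left unmatched. Libraries of a group differed beyond counting noise (chi-square per gene 2.98 to 55.2), and each was used as 1 replicate, since the study describes separate animals. Cages were shared within groups, and this was not modelled.

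R 4.3.3 with edgeR 4.0.16 and DESeq2 1.42.0 was used. Comparisons of No SCI, CONT SCI and TX SCI were fitted over 14 samples, those with exercise over 20, and TX SCI against exercise over 24. Genes were kept by filterByExpr (minimum count 10, total 15), scaled by TMM and tested with glmQLFTest over all genes, with Benjamini-Hochberg adjustment and a threshold of 0.05. Standard errors were derived from the F statistic and the estimate. Levels use TMM over 24 samples, with a prior count of 2 for log2 CPM. Of these steps, the edgeR test of CONT SCI against No SCI over 14 samples was tried on simulated data, and the others were not.

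The genes, lists, tests and motifs were chosen with earlier results of these data known. The rule for named genes took Gfap, Vim and, for each, the 2 genes with the highest r over 24 samples. The annotation table at hand (GRCr8, 47357 genes) has 0 Ensembl identifiers and matched 0 rows, so the lists of marker genes, other intermediate filaments and signalling genes could not be looked up and were not analysed here. Symbols of Gfap and Vim came with their identifiers. Alternatives were RLE, upper quartile and total-count scaling, DESeq2, other filters, fits over more or fewer groups, a block for the replicate number, and leaving out each replicate. Leaving out replicates for the measures of spread was added after seeing the data.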

Additional observations from a re-analysis of the deposited data

Results flagged for a closer look

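Within groups, 15 sets of values were examined for a sample far from the rest of its group. They were Gfap CPM, Vim CPM and the log2 of the Gfap to Vim ratio in 5 groups. About 0.75 were expected by chance at the level used (Dixon's critical value for the group size), and 2 were found, both for Gfap. The log2 ratio of CONT SCI + SWIM replicate 4 had a gap of 0.674, under the critical value of 0.71. Such results can depend on the scale, and other scales were not examined. CONT SCI replicate 6 had 15.2 CPM of Gfap against 8.07 to 9.86 in the other 5 rats, a gap of 0.751 of the group's range, and its Vim of 1003 CPM was also the highest of the group. CONT SCI + SWIM replicate 4 had 17.3 CPM of Gfap against 5.39 to 7.71 in the other 4 rats, a gap of 0.806, with a library of 29709101 counts, the largest of its group. Replicates 2 and 3, the lowest of that group for Gfap, had its smallest libraries, with 16086670 and 20112457 counts. Replicates 1 and 5 went the other way, with more Gfap in the smaller library. The part of library size or of tissue from outside the ganglion in these values was not tested.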

How the results depend on the processing

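All adjusted p-values here are from edgeR or DESeq2 over all genes tested. The correlation of Gfap and Vim within groups, past 0.05 as reported, kept its direction and stayed past it under every alternative, with r from 0.60 to 0.71. No difference between groups was past the threshold as reported. Vim passed it under no alternative, and Gfap passed it under 8, all described with the results apart from the replicate block. With the replicate number as a block (replicate block), Gfap in CONT SCI + SWW against CONT SCI was 0.71 (adjusted p = 0.0288), and with only these 2 groups fitted 0.59. The replicate numbers belong to different animals. The deviations of same-numbered samples had r from -0.299 to 0.379 in single pairs, with means of -0.178 to 0.0561 over the 10 comparisons. With so few pairs in each, these values cannot settle whether same-numbered samples share more than a number. The cause of these changes was not tested.

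The sign of Gfap turned in 2 fits with a replicate left out, both in TX SCI against No SCI (0.098 as reported), and under no other alternative. The sign of Vim turned in 14 fits with a replicate left out and under the alternatives that follow. Vim in TX SCI against No SCI was 0.0012 with upper quartile scaling, 0.027 on total counts, 0.00056 without a filter and 0.0097 with at least 50 counts in every sample. Vim in CONT SCI + SWW against No SCI was 0.0033 with upper quartile scaling and 0.011 on total counts. Vim in TX SCI against CONT SCI + SWW was -0.0014 with RLE scaling, -0.00045 with upper quartile scaling, -0.010 with the replicate block, -0.0014 with DESeq2 and -0.016 with only these groups.

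With each replicate left out in turn, Gfap ranged from -1.21 to -0.59 in CONT SCI + SWIM against CONT SCI + SWW, from -0.85 to -0.28 in CONT SCI + SWIM against No SCI, from 0.40 to 0.75 in CONT SCI + SWW against CONT SCI, from 0.18 to 0.48 in TX SCI against CONT SCI, from 0.35 to 0.93 in TX SCI against CONT SCI + SWIM, from -0.049 to 0.22 in TX SCI against No SCI, from -0.63 to -0.022 in CONT SCI + SWIM against CONT SCI, from 0.17 to 0.52 in CONT SCI + SWW against No SCI, from -0.42 to -0.087 in TX SCI against CONT SCI + SWW and from -0.39 to -0.16 in CONT SCI against No SCI. Vim ranged from -0.058 to 0.067 in TX SCI against No SCI, from -0.024 to 0.10 in TX SCI against CONT SCI, from -0.063 to 0.031 in CONT SCI + SWW against No SCI, from -0.026 to 0.070 in CONT SCI + SWW against CONT SCI, from -0.038 to 0.071 in TX SCI against CONT SCI + SWW, from -0.083 to -1.3e-06 in CONT SCI against No SCI, from -0.11 to -0.040 in CONT SCI + SWIM against CONT SCI, from -0.15 to -0.063 in CONT SCI + SWIM against CONT SCI + SWW, from -0.17 to -0.088 in CONT SCI + SWIM against No SCI and from 0.057 to 0.17 in TX SCI against CONT SCI + SWIM.

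The count of genes past the threshold moved by over 1.5 times in CONT SCI + SWIM against CONT SCI + SWW, from 454 to 819 with DESeq2, 251 with the replicate block and 123 to 811 with replicates left out. It fell from 1578 to 1041 for CONT SCI against No SCI without No SCI replicate 2, and without TX SCI replicate 4 from 2193 to 1333 for TX SCI against CONT SCI + SWIM and from 3359 to 2026 for TX SCI against CONT SCI + SWW. Group levels moved by less than 1 SD under both other scalings.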
